A study of Homo sapiens with 12 samples.

Results

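The comparison described here set cells that received MSX1 with its K139 lysine replaced against cells that received wild-type MSX1. It used 9 of the 12 RNA-seq libraries, namely 3 with K139R and 3 with K139Q, pooled as 6 mutant libraries, and 3 with wild-type MSX1 (called MSX1 below). All libraries came from a human embryonic palatal mesenchymal cell line named HEPM, transfected with a plasmid and sampled at 8 h. The remaining 3 libraries carried the empty plasmid (Vector) and entered the fit to estimate the spread between replicates. The study's text names mouse cells, whereas every gene identifier in the table is a human one. The titles, genotype labels and the study's text give the mutants as K139R and K139Q, whereas the labels' library names for the same samples read R157S and R157K. The titles were followed, and if the library names were right neither group would replace this lysine. The methods call the replicates biological, and no source used here says whether they were separate cultures, so the p-values measure the spread between these libraries, which may be technical.

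MSX1 is a homeodomain transcription factor expressed in palatal mesenchyme, best known as a repressor, and its loss gives cleft palate and missing teeth. Lysine residues carry a positive charge that acetylation removes. Arginine at that position keeps the charge and cannot be acetylated, and glutamine lacks the charge and resembles acetyl-lysine. A change shared by both mutants is therefore one seen with either residue in place of the lysine. The pooled comparison averages the mutants and does not require each to change. Both are set against the same MSX1 libraries, so variation in those libraries enters both differences. Whether the loss of the lysine caused a shared difference was not tested.

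The table lists 666 genes, and the study chose them for a difference between MSX1 and Vector in these same libraries. The same MSX1 libraries serve as the reference here, so a listed gene can lie nearer to Vector in the mutants through that choice alone. The adjusted p-values cover the listed genes only. Expression values, in an unstated unit and rounded to steps of 0.01, were recovered for 665 genes, and 533 with a mean of at least 1 in any group were tested. The methods give a target depth, and the depth reached by each library is unknown. A log2 difference below is one of means of log2(value + 1), which is smaller than the log2 ratio for low values. In bulk RNA, fewer expressing cells and less RNA per cell cannot be told apart.

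The transfected transcript itself came first. MSX1 stood at 6553.80, 4672.09 and 6959.42 in MSX1 replicates 1 to 3. It was at 13561.34, 7210.92 and 5811.91 in K139R and at 8560.24, 13893.25 and 8006.32 in K139Q. One K139R library lay inside the MSX1 range and the other mutant libraries lay above it, with 1 library of each mutant far above the rest. Vector libraries ranged from 17.15 to 20.28. The pooled difference was 0.60 ± 0.26 on the log2 scale (SE), which did not pass (adjusted p = 0.18 from limma, exact two-sided permutation p = 0.095). These values add plasmid and endogenous transcripts.

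In the main fit, with 4 group means over 12 libraries, few listed genes were called between the pooled mutants and MSX1, nearly all upward. Of 533 genes, 20 (3.75%) passed an adjusted p of 0.05 in limma, 19 higher (3.56%) and 1 lower (0.188%) in the mutants. Of these, 5 differed by at least 1 on the log2 scale and 0 by at least 2. At an unadjusted p under 0.05 there were 122 genes, 91 higher and 31 lower. The middle of all tested genes did not move, with a median difference of 0.0039 and 5th and 95th percentiles of -0.50 and 0.74. For 448 genes (84.1%) the 95% interval of the difference lay wholly between -1 and 1. The count and the direction changed with the settings. With the MSX1 value as a covariate, in a fit without Vector, 169 genes passed, 66 higher and 103 lower. Without the covariate the same 9 libraries gave 10. Without the 2 libraries highest in MSX1, 96 passed, 63 higher and 33 lower. With library medians set equal, 68 genes were higher and 79 lower at an unadjusted p under 0.05 in limma.

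The number of calls rested on single libraries. Without MSX1 replicate 1 or replicate 2, 0 genes passed in limma (76 and 99 at an unadjusted p under 0.05), and without MSX1 replicate 3, 6 passed. Without K139R replicate 1, 75 genes passed, the 20 among them. Without K139R replicate 2 or K139Q replicate 1, 10 and 12 passed. With the 6 mutant libraries as a single group 7 passed, among them H1-2, DUSP16, LAT2, MROH8 and 3 genes without a symbol, while EGR1, H2BC5, H3C2 and FOSB had adjusted p of 0.052, 0.084, 0.11 and 0.14 in limma. With the 9 libraries alone 10 passed, and the fit with a single mutant group used these 9 too. Every call named below is lost without MSX1 replicate 1 and without MSX1 replicate 2.

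**Figure D1:**
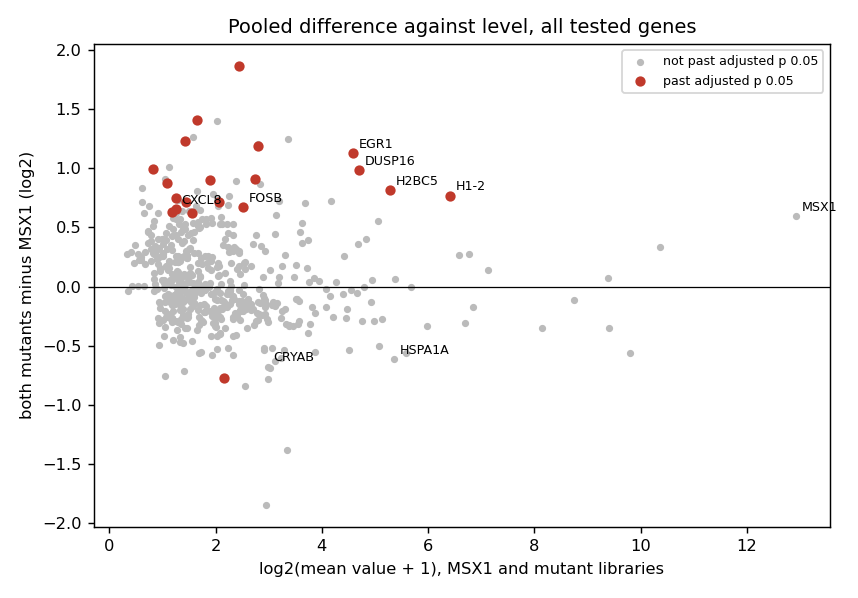
The plot shows, for each of the 533 tested genes, the difference between both mutants and MSX1 (vertical axis, log2) against its mean level in those libraries (horizontal axis, log2 of the mean value plus 1). Red points are the 20 genes past an adjusted p of 0.05, 19 above 0 and 1 below, and MSX1 itself at the far right did not pass.

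Histone genes formed the largest group of called genes among the lists examined. Replication-dependent histone genes package new DNA and cluster on the short arm of human chromosome 6. Of 7 tested members, 3 passed as higher and 0 as lower, where 3.56% of all tested genes passed as higher and 0.188% as lower. Their median difference was 0.77, beside 0.0039 over all tested genes. All 7 had a lower mean in MSX1 than in Vector, and the 149 tested genes of that kind had a median of 0.44. The linker histone gene H1-2 stood at 61.56, 57.18 and 67.78 in MSX1, at 105.02, 104.32 and 96.63 in K139R and at 104.22, 116.79 and 111.70 in K139Q. All 6 mutant libraries lay above all MSX1 libraries, and close to each other. Its Vector libraries were higher still, from 124.42 to 152.01. The pooled difference was 0.77 ± 0.14 (SE, adjusted p = 0.013 from limma), a 1.71-fold ratio of mean values.

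H2BC5, a gene for core histone H2B, stood at 23.29, 27.53 and 30.38 in MSX1, at 44.06, 45.78 and 35.67 in K139R and at 42.57, 71.57 and 55.90 in K139Q. The groups did not overlap, and K139Q replicate 2 was the highest. The difference was 0.81 ± 0.18 (adjusted p = 0.026 from limma), and 0.62 after removal of each library's trend with GC content (adjusted p = 0.069 from limma). H3C2, a core histone H3 gene, stood at 3.17, 4.28 and 3.09 in MSX1, at 6.61, 4.30 and 6.41 in K139R and at 6.81, 11.37 and 11.42 in K139Q. K139R replicate 2 was barely above the highest MSX1 library, and K139Q was the higher of the mutants. The difference was 0.91 ± 0.19 (adjusted p = 0.019 from limma).

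The other 4 histone genes did not pass. H2BC6 had a difference of 1.01 ± 0.34 with groups that did not overlap (adjusted p = 0.11 from limma), H1-4 one of 0.44 and H4C5 one of 0.40. H4C11 was the exception in sign, at -0.53 ± 0.73, and its mutants went opposite ways. Its difference was -1.73 in K139R, with libraries at 34.50, 6.27 and 0, and 0.66 in K139Q. In every tested histone gene the difference from MSX1 was lower in K139R than in K139Q, for example 0.14 against 0.67 for H4C5. Histone genes have near-identical copies that can share reads, and most of their mRNAs end in a stem-loop where other mRNAs have a poly(A) tail, while the libraries were made by poly(A) selection. The part of these in the result was not tested.

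The 250 bases before the start of the called histone genes and of EGR1 are printed to show the sequence elements next to genes called as higher in the mutants. They come from RefSeq on build GRCh38.p14, on the strand of the gene. Capitals mark CCAAT and TATAAA on either strand in the histone promoters and the CArG box, the binding element of serum response factor, in EGR1. H1-2 lies on the minus strand at chr6:26056471-26056720, H2BC5 on the plus strand at chr6:26157871-26158120, H3C2 on the minus strand at chr6:26032100-26032349 and EGR1 on the plus strand at chr5:138465229-138465478.
H1-2: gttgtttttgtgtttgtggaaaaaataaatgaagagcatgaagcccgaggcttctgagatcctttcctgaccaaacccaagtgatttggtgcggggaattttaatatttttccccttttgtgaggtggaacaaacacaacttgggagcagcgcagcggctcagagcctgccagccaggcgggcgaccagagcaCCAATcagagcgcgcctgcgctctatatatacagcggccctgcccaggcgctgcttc
H2BC5: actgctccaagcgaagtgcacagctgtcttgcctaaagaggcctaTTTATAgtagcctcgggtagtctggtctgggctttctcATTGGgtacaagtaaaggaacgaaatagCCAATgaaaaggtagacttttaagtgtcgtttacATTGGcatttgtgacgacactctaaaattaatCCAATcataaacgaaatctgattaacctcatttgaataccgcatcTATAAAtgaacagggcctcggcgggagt
H3C2: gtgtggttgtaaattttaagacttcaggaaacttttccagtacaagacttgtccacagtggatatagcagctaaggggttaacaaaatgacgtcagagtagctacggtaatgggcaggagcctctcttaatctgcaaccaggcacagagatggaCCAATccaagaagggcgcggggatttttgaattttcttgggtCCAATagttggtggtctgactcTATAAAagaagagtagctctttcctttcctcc
EGR1: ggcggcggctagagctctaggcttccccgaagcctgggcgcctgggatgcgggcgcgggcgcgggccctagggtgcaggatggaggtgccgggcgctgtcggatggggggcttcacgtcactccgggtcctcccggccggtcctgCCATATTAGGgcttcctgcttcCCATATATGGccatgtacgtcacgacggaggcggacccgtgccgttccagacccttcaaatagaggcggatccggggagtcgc

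CCAAT on either strand occurred 1 time before H1-2, 4 times before H2BC5 and 2 times before H3C2. TATAAA on either strand occurred 2 times before H2BC5, 1 time before H3C2 and not before H1-2. The window before EGR1 held 2 CArG boxes. Of the 15 called genes with a symbol, 13 matched a RefSeq promoter, and CCAAT was in 6 of them, beside 33.0% of 27305 promoters. TATAAA was in 6, beside 11.1%, and the CArG box in 1, beside 1.14%. TAATTG, a core that homeodomains such as that of MSX1 bind, was in 1 (ALB), beside 6.87% of promoters. Among the 321 tested genes with a RefSeq promoter, the shares were 30.5% for CCAAT, 13.1% for TATAAA, 1.87% for the CArG box and 2.80% for TAATTG. These matches describe the windows and are not binding sites.

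Immediate early genes, which are transcribed within minutes of a stimulus to growth factor or stress signaling, were the next group. All 6 tested members had a pooled difference above 0, with a median of 0.35, and 2 passed as higher, where 3.56% of all tested genes did. In K139R alone, JUNB and ARC had differences of -0.30 and -0.24, against 0.44 and 0.34 in K139Q. EGR1, a zinc finger transcription factor, stood at 15.35, 10.55 and 15.73 in MSX1, at 28.10, 26.01 and 21.50 in K139R and at 44.24, 47.97 and 26.55 in K139Q. No mutant library overlapped an MSX1 library, and Vector libraries were the lowest, from 4.04 to 4.95. The difference was 1.13 ± 0.20 (SE, adjusted p = 0.013 from limma), a 2.33-fold ratio of mean values.

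FOSB, a subunit of the AP-1 transcription factor, stood at 4.38, 2.76 and 3.01 in MSX1, at 5.55, 4.78 and 3.85 in K139R and at 8.25, 7.51 and 6.42 in K139Q. K139R replicate 3 lay below MSX1 replicate 1, so the groups overlapped, alone among the 20 called genes. The difference was 0.67 ± 0.16 (adjusted p = 0.031 from limma, exact permutation p = 0.048). It did not pass with a pseudocount of 0.1, with the 9 libraries alone or with the MSX1 covariate (adjusted p = 0.051, 0.071 and 0.052 from limma). The zinc finger gene EGR3 did not overlap and did not pass (0.51 ± 0.19, adjusted p = 0.12 from limma). It ranged from 0.63 to 0.86 in MSX1 and from 0.14 to 0.49 in Vector. EGR3 was therefore tested only because its mean reached 1 in the mutant groups. JUNB, ARC and ZFP36 had differences of 0.068, 0.052 and 0.18.

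DUSP16, a phosphatase that inactivates JNK, was the only listed member of the MAP kinase feedback genes. It stood at 17.64, 14.73 and 16.51 in MSX1, at 31.34, 35.55 and 43.49 in K139R and at 36.67, 31.04 and 23.78 in K139Q. The mutant libraries lay above all MSX1 libraries and in the range of Vector or above it (24.26 to 34.96 in Vector), with K139Q replicate 3 just below that range. The difference was 0.98 ± 0.18 (adjusted p = 0.013 from limma).

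**Figure D2:**
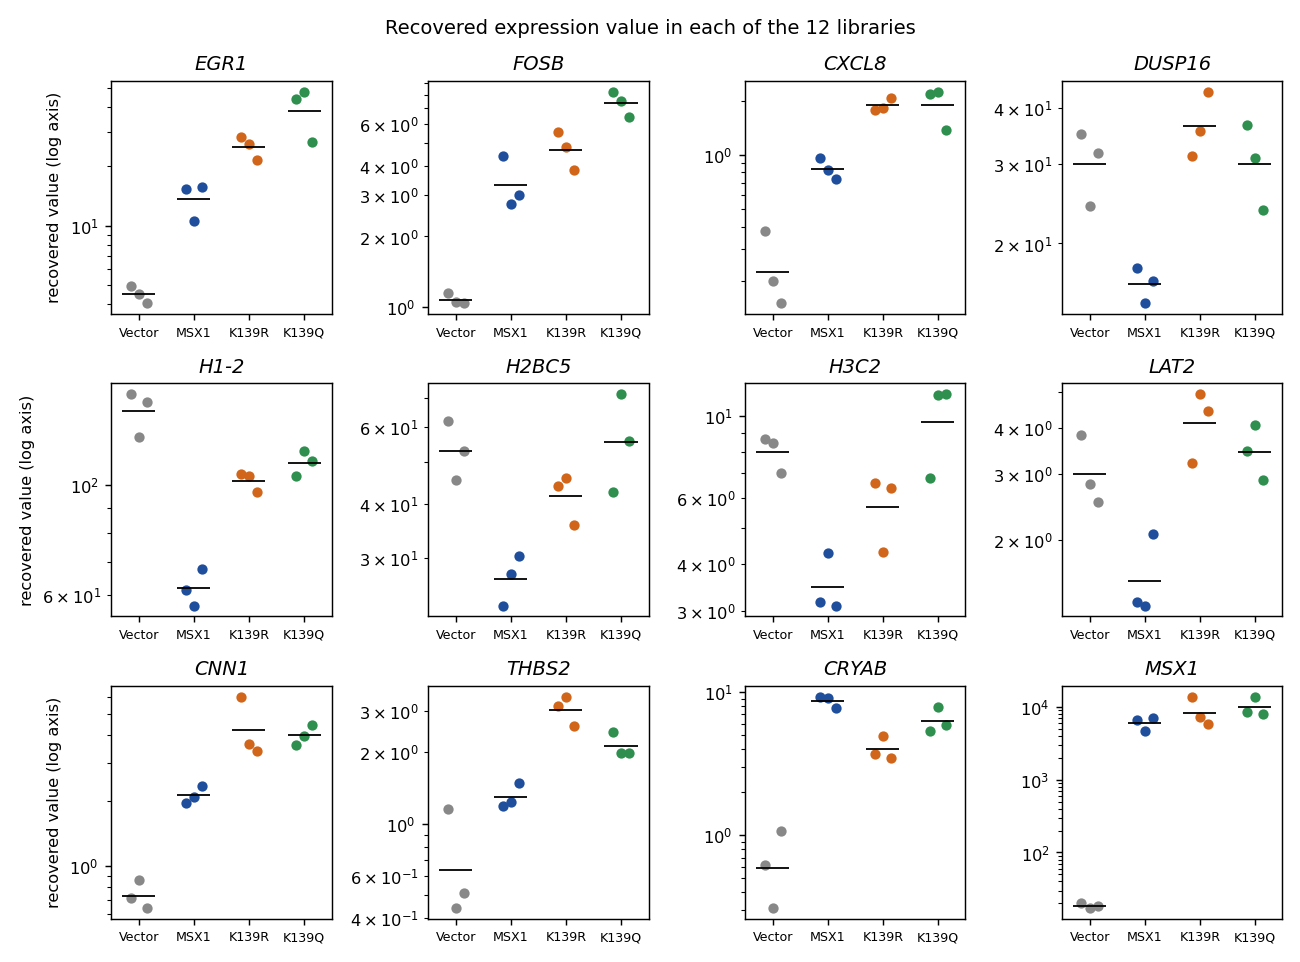
The panels show the recovered expression value (vertical log axis) of 12 genes in each of the 12 libraries, as points by group with replicates 1 to 3 from left to right and a bar at the geometric mean. In EGR1, DUSP16, H1-2, H2BC5, H3C2, CXCL8, LAT2, CNN1 and THBS2 all 6 mutant libraries lie above the MSX1 libraries, and in FOSB, CRYAB and MSX1 the groups overlap.

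CXCL8, a chemokine that attracts neutrophils, was the 1 of 4 tested inflammatory genes to pass, where 3.56% of all tested genes passed as higher. It stood at 0.96, 0.83 and 0.74 in MSX1, at 1.77, 1.82 and 2.08 in K139R and at 2.19, 2.25 and 1.38 in K139Q. The groups did not overlap, at values near the lower limit of the table. Vector ranged from 0.15 to 0.38, so CXCL8 had the mean of at least 1 needed for testing only in the mutant groups, where it was higher. The difference was 0.65 ± 0.15 (adjusted p = 0.026 from limma), and once each library's trend with GC content was removed it was 0.13 (adjusted p = 0.67 from limma). IL32, ICAM1 and IL11 had differences of -0.24, 0.16 and 0.0039.

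Among 5 tested matrix genes, only THBS2, a matricellular thrombospondin, passed, where 3.56% of all tested genes passed as higher. It stood at 1.19, 1.24 and 1.49 in MSX1, at 3.13, 3.44 and 2.59 in K139R and at 2.43, 1.99 and 1.99 in K139Q. All mutant libraries were above the MSX1 range, and all K139R libraries were above all K139Q libraries. The difference was 0.63 ± 0.16 (adjusted p = 0.045 from limma), and with the labelled replicate number as a block the adjusted p was 0.063. The related THBS4 did not pass (0.57 ± 0.18, adjusted p = 0.083 from limma), nor did COL12A1 (0.40 ± 0.16, adjusted p = 0.15 from limma). COL1A1 and TNC had differences of -0.33 and -0.12.

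CNN1, the actin-binding calponin of smooth muscle, stood at 1.96, 2.08 and 2.34 in MSX1, at 6.04, 3.67 and 3.39 in K139R and at 3.62, 3.96 and 4.47 in K139Q. The groups did not overlap, and Vector was lowest, from 0.64 to 0.86. The difference was 0.71 ± 0.16 (adjusted p = 0.026 from limma). LAT2, an adaptor protein of lymphoid and mast cell signaling, stood at 1.36, 1.33 and 2.07 in MSX1, at 3.21, 4.93 and 4.44 in K139R and at 3.47, 4.06 and 2.90 in K139Q. Its groups did not overlap either (0.90 ± 0.17, adjusted p = 0.018 from limma). Its Vector libraries, from 2.53 to 3.82, also lay above the MSX1 range.

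The remaining called genes with symbols were low. MROH8 ranged from 0.37 to 0.58 in MSX1 and from 0.99 to 2.48 in the mutants (0.88 ± 0.18, adjusted p = 0.019 from limma). ALB, the gene for serum albumin, ranged from 0.72 to 0.82 and from 1.02 to 2.47 (0.75 ± 0.18, adjusted p = 0.031 from limma). NPIPB8, one of a family of near-identical copies whose reads may be shared, ranged from 0.79 to 1.28 and from 1.47 to 3.46 (0.71 ± 0.19, adjusted p = 0.048 from limma). GABRR2, a GABA receptor subunit gene named after its values were seen, ranged from 0.61 to 0.91 and from 1.14 to 2.58 (0.63 ± 0.15, adjusted p = 0.034 from limma, 0.063 with the block). None of these groups overlapped. Vector ranged from 0.89 to 1.97 for MROH8, from 1.81 to 2.32 for ALB and from 1.89 to 2.55 for NPIPB8. For GABRR2 it ranged from 2.07 to 2.60, and in each of these genes Vector lay above the MSX1 range. The choice of the listed genes alone can place the mutants nearer to Vector, as said above. After removal of the GC trend ALB had a difference of 0.32 and NPIPB8 one of 0.39, and neither passed (adjusted p = 0.28 each from limma), while H3C2 has no GC value. The other 5 higher genes carry no symbol in the table, and their differences ranged from 1.00 to 1.86. The gene with the smallest of these differences had a mean of at least 1 only in K139R. It ranged from 0.1 to 0.21 in MSX1 and from 0.73 to 0.93 in Vector.

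The genes next in order on the lower side did not pass. CRYAB, a small heat shock protein, stood at 9.30, 9.04 and 7.71 in MSX1, at 3.72, 4.94 and 3.47 in K139R and at 5.38, 7.86 and 5.85 in K139Q. Only K139Q replicate 2 reached the MSX1 range, and the difference was -0.68 ± 0.18 (adjusted p = 0.051 from limma). S100A4, a calcium-binding protein of migrating cells, had a difference of -0.68 ± 0.23 with overlapping groups (adjusted p = 0.11 from limma). BAIAP3, PLEKHB1, KREMEN2 (a co-receptor for the WNT inhibitor DKK1), CD7, TMIE, the antisense transcript ILRUN-AS1 and 1 gene without a symbol had differences from -0.84 to -0.37 and adjusted p from 0.11 to 0.14 in limma. The libraries were stranded, and whether the counting used strand is not stated, so the value of ILRUN-AS1 may include reads of its partner.

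**Figure D3:**
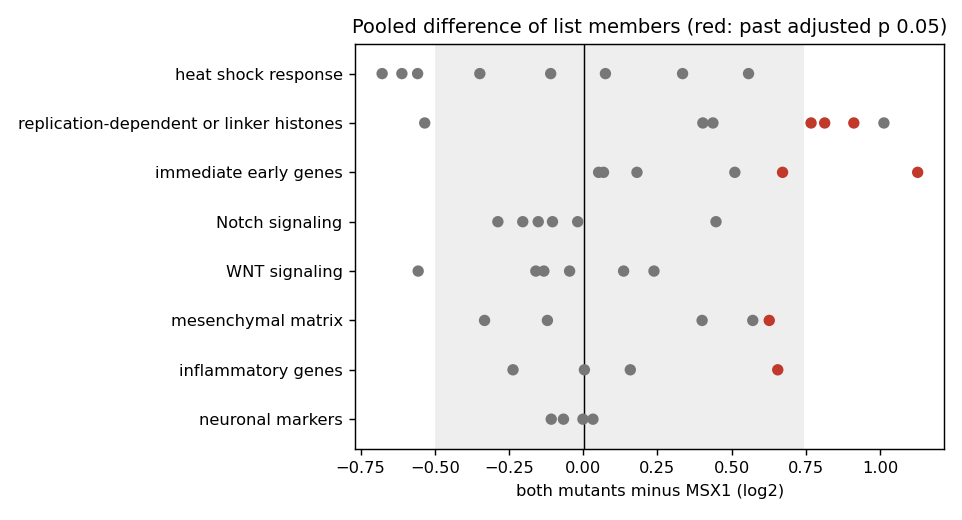
Each point is a tested gene of a list with at least 4 tested members, placed at its difference between both mutants and MSX1 (horizontal axis, log2), red where it passed an adjusted p of 0.05. The line is the median of all tested genes (0.0039) and the grey band runs from their 5th to their 95th percentile (-0.50 to 0.74). EGR1 (1.13), H2BC6 (1.01) and H3C2 (0.91) lie furthest to the right, H4C11 lies at -0.53, and the neuronal markers lie close to 0.

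The heat shock, Notch and WNT lists held no called gene, where 3.75% of all tested genes passed. At that share, 0 calls among 6 to 8 genes says little about a pathway. Heat shock genes, which encode chaperones, had 8 tested members, of which 3 had differences above 0 and 5 below, with a median of -0.23. HSPA1A, whose copy HSPA1B is near-identical, had a difference of -0.61 ± 0.30 with overlapping groups, and HSPB8 one of 0.56 ± 0.17 without overlap (adjusted p = 0.24 and 0.085 from limma). Of 6 Notch genes 0 passed (median -0.13), the target gene HEY2 being the highest at 0.45 ± 0.16 without overlap (adjusted p = 0.11 from limma). Of all tested genes, 10.5% were higher without overlap, as HSPB8 and HEY2 were. NOTCH3 and the target gene HES5 had -0.29 and -0.20. Of 6 WNT genes 0 passed (median -0.089), from the ligand WNT6 at -0.56 ± 0.25 to the ligand WNT9A at 0.24 ± 0.14.

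TIPARP and CYP1A1, both induced through the aryl hydrocarbon receptor and named after their values were seen, did not overlap and did not pass. TIPARP stood at 7.67, 8.44 and 9.17 in MSX1, at 11, 20.65 and 24.79 in K139R and at 13.37, 10 and 11.43 in K139Q (0.71 ± 0.22, adjusted p = 0.083 from limma). CYP1A1 ranged from 1.17 to 1.59 in MSX1 and from 1.68 to 2.64 in the mutants (0.44 ± 0.14, adjusted p = 0.091 from limma). SNAI1, the listed MSX1 target tested, had a difference of -0.036, and the single apoptosis gene tested, BIK, one of -0.35 ± 0.15 (adjusted p = 0.18 from limma).

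Over all tested genes, 65 (12.2%) had 6 mutant libraries that did not overlap the 3 MSX1 libraries, 56 higher (10.5%) and 9 lower (1.69%). This split depended on scaling. With library medians set equal it was 31 higher and 44 lower, with quantile normalization 38 and 32, and after removal of the GC trend 33 and 33. The split of called genes was 14 higher and 5 lower, 12 and 2, and 15 and 9 under the same settings. Of the 20 called genes 19 did not overlap. Groups that do not overlap always have an exact permutation p of 0.024, the smallest that 84 splits allow. That p therefore adds nothing to these calls.

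The genes lower in MSX1 than in Vector had the higher differences. The 384 tested genes with a higher mean in MSX1 than in Vector had a median pooled difference of -0.11, and the 149 with a lower mean one of 0.44. Both comparisons use the same MSX1 libraries, on genes chosen for the first of them, so these medians are descriptions only.

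The mutants were then set against each other, a comparison that shares no library with the choice of the listed genes. Only 1 of 533 genes (0.188%) passed between K139Q and K139R, and 49 had an unadjusted p under 0.05. It was ENSG00000254721, which has no symbol in the table, at 2.64, 1.78 and 4.90 in K139R and at 0.35, 0 and 0 in K139Q, with MSX1 between 0.82 and 1.07. K139Q lay below and K139R above MSX1, so its pooled difference was 0.079.

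None of the 20 called genes passed between the mutants, with differences of K139Q minus K139R from -0.60 to 0.67 and a smallest adjusted p of 0.43 from limma. For 5 of them the unadjusted 95% interval left out 0. Among these, the interval was 0.10 to 1.09 for EGR1, 0.20 to 1.14 for H3C2 and 0.16 to 0.95 for FOSB, all higher in K139Q. For H1-2 it ran from -0.22 to 0.45, for CXCL8 from -0.35 to 0.38 and for DUSP16 from -0.71 to 0.17. The size of the difference from MSX1 was larger in K139R for 13 called genes and in K139Q for 7.

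**Figure D4:**
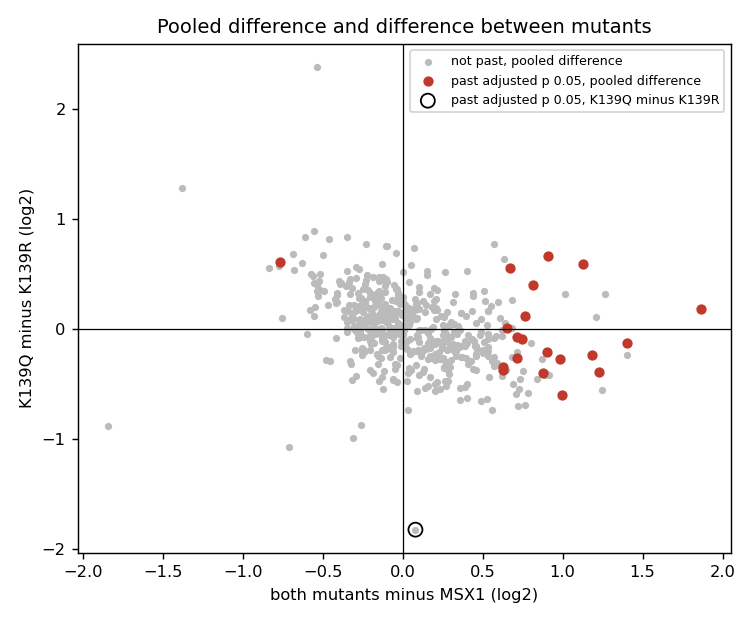
Each of the 533 tested genes is placed by its difference between both mutants and MSX1 (horizontal axis, log2) and between K139Q and K139R (vertical axis, log2). Red points passed an adjusted p of 0.05 on the horizontal axis and lie between -0.60 and 0.67 on the vertical axis, and the circled gene, ENSG00000254721, is the 1 that passed between the mutants.

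MSX1 level and a trend with GC content differed among the mutant libraries. For each library, the deviation of each gene from its mean over the 12 libraries was fitted on GC content. The slope is therefore relative to the other libraries, and the part of the choice of listed genes in it was not tested. In log2 per 10 percentage points, it was 0.31, 0.17 and 0.32 in MSX1 replicates 1 to 3. It was 0.26, -0.18 and -0.35 in K139R and -0.019, 0.28 and 0.13 in K139Q. The libraries with the highest MSX1 values, K139R replicate 1 and K139Q replicate 2, had slopes in the MSX1 range, and the others lay below it. Across genes the pooled difference went down with GC content (Spearman's rho = -0.54 over 510 genes, which are not independent replicates and share the same libraries), and the difference of K139Q minus K139R went up with it (rho = 0.57). The called higher genes had a median GC content of 50.6%, against 57.8% for all tested genes.

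The calls were also computed with these differences in view. After removal of the GC trend 24 of 510 genes passed, 12 of them among the 20, and without the pair of libraries highest in MSX1 96 passed, all 20 among them. With the MSX1 value as a covariate, fitted without Vector, 169 passed, 66 higher and 103 lower. Of these, 16 were among the 20.

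**Figure D5:**
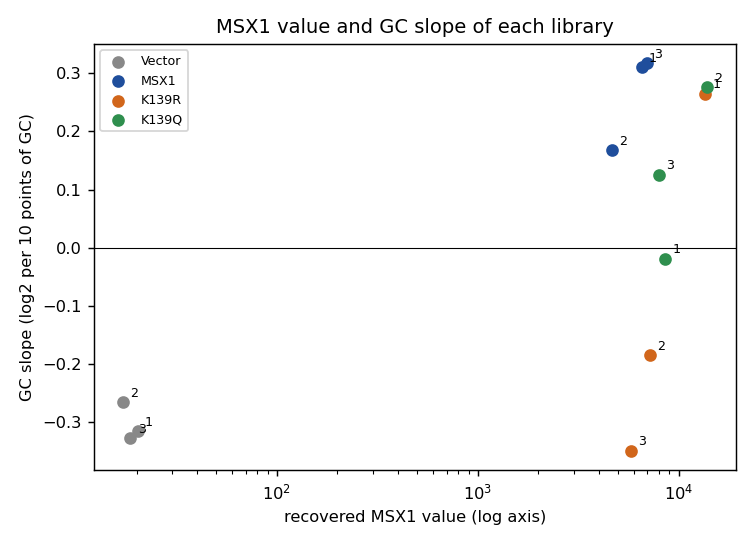
Each point is 1 of the 12 libraries, numbered by replicate, with its recovered MSX1 value (horizontal log axis) and its GC slope (vertical). The slope is that of each gene's log2 deviation from its mean over the 12 libraries, per 10 percentage points of GC content. The MSX1 libraries lie between 0.17 and 0.32, the Vector libraries near -0.3, and the mutant libraries spread from -0.35 to 0.28.

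Cell type markers gave a limited check. Of 18 palatal mesenchyme identity genes 0 are among the listed genes, so the labelled cell type was not checked here. Of 18 neuronal markers 5 are listed, with a summed value from 58.87 to 81.11 in MSX1, 45.58 to 82.74 in K139R and 64.84 to 102.61 in K139Q. Of 15 epithelial markers 2 are listed, summing to 7 to 7.35, 6.19 to 6.95 and 6.17 to 6.90. The sums of both mutants lay below the MSX1 range, while neither gene separated when taken singly. EPCAM (pooled difference -0.063) and KRT17 (-0.18) each overlapped between mutant and MSX1 libraries, and neither passed. The 2 listed skeletal muscle markers of 13 summed to 52.87 to 57.64, 20.45 to 45.23 and 37.02 to 50.65. This sum was nearly all TNNT1, which did not pass (-0.56 ± 0.26, adjusted p = 0.21 from limma). TNNT1 ranged from 15.49 to 34.99 in Vector, and the other marker, MYOD1, was not tested. The part of other cell types in the results was not tested.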

How the data were processed

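RNA was extracted from HEPM cells after plasmid transfection and sequenced as stranded poly(A) libraries. The authors deposited a score for each of 666 genes and 12 libraries, centred and divided by the SD gene by gene after ln(value + 1). The labels name RSEM and the study's methods name featureCounts. The genome build, the unit and the depth reached are not given in the sources used here, and the methods give only a target depth, so counting error is not given. Values in steps of 0.01 that return the deposited scores within 5e-12 were found for 665 genes. RN7SL1, for which none were found, was not tested. The main fit used limma 3.58.1 in R 4.3.3 on log2(value + 1), with 4 group means over 12 libraries. Its contrast was the mean of K139R and K139Q minus MSX1, with Benjamini-Hochberg adjustment over 533 genes with a group mean of at least 1. Exact permutation tests were two-sided over 84 splits. GC content came from GENCODE 29 transcripts (95.7% of tested genes) and promoters from RefSeq. Scripts were tested on simulated data. Libraries follow the title numbers. Library names number MSX1 replicates 1 and 2 the other way round, and read R157S for K139R and R157K for K139Q. The labels give the title number as a batch. Correlations of deviations from group means ran from -0.48 to 0.18 over 18 same-numbered pairs, beside -0.43 to 0.44 for other pairs. No pairing was seen, which does not show that there is none. The block is printed where it ends a call. Named genes were MSX1, the 15 called genes with the largest difference in each direction (filled to 10 by p where fewer passed), list members that passed and the 3 list members with the smallest p. The gene that passed as lower is not reported here by name. The members and lists were chosen with earlier results of these data known. Alternatives covered the pseudocount, filter, scaling, samples in the fit, block, MSX1 covariate, GC trend and each library left out. The fits with the MSX1 covariate and with the mutants as a single group left out Vector. The GC trend and leaving out the pair of libraries highest in MSX1 were added after seeing the data.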

Additional observations from a re-analysis of the deposited data

Results flagged for a closer look

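Among the 6 mutant libraries, RBFOX3, a neuronal splicing factor, stood apart in K139R replicate 2, at 17.23 against 7.83 in the next library. On the log2(value + 1) scale the gap was 0.63 of the range, above Dixon's 95% critical value for 6 libraries. Of 42 named genes with a symbol this was the only one on that scale, and chance marks about 1 group in 20. Its pooled difference was 0.033, and MSX1 replicate 1 was also high, at 14.27. ENSG00000254721 differed between the mutants, with K139Q minus K139R at -1.82 on the log2 scale, by limma's test of that difference over 533 genes, as described above. All K139Q libraries lay below all K139R libraries.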

How the results depend on the processing

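All 20 called genes kept their direction under every alternative run, and the calls did not. Against 20 calls for both mutants, 8 of 170 genes passed with a group mean of at least 5 (fewer genes tested). Without the libraries highest in MSX1, 96 passed. The 9 libraries alone gave 10, and on these libraries the mutants as a single group gave 7 and the MSX1 covariate 169. Leaving out single libraries gave 0 to 75. With the replicate block by title or by library-name numbers 20 passed, 18 of them among the 20, and THBS2 and GABRR2 were the called genes lost. Between the mutants, 0 genes passed in limma with a pseudocount of 5, a group mean of at least 5, quantile normalization or the MSX1 covariate (56, 24, 52 and 64 at an unadjusted p under 0.05), 3 without the libraries highest in MSX1, and 1 to 26 without single libraries, 26 being without K139R replicate 1. Groups did not overlap for 24 of 170 genes with a group mean of at least 5, against 65 of 533 in the main setting. Without the libraries highest in MSX1 the count was 145 of 533. Without single libraries it was 67 to 117, 117 being without MSX1 replicate 2. With values unchanged, leaving out libraries can only keep or raise this count. The median difference was -0.10 with library medians set equal. MSX1 had a difference of 0 under quantile normalization, which gives the highest gene of each library the same value. RBFOX3 changed sign with equal medians (-0.067) and the covariate (-0.014), and ran from -0.26 to 0.49 without single libraries. L1CAM was at 0.0042 without the GC trend and ran from -0.24 to 0.11 without single libraries. Where no construction is named, the cause was not tested. The depth reached is unknown, which limits the low genes most, and 363 tested genes have no group mean of 5.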
